A study of Mus musculus with 27 samples.

Results

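RNA from mouse brain was compared between 3 libraries taken 24 h after UVB light was applied to the head and 3 libraries from untreated mice, called controls. The 24 h libraries came from mice whose interparietal bone, a bone at the rear of the skullcap, had received UVB of 311 nm at 2 mW. These 6 libraries were picked by their labels out of 27 in the series, which also holds brain at 0.5 h and the meninges and skull of the same 3 groups. The labels give no strain, age, hour of collection, sham handling or way in which the brain was divided. They do not tie replicates to animals, and a p-value here covers the spread among these libraries, which may be technical. Irradiation away from the cranium, which the design text names, was not analysed here.

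UVB is absorbed mostly in the outer layers of tissue it meets. Circulating glucocorticoid hormones enter brain cells and switch on genes such as Sgk1, Tsc22d3, Per1 and Fkbp5 through the glucocorticoid receptor. FoxO factors raise genes of nutrient shortage when insulin signalling is weak, and the unfolded protein response raises chaperones when the endoplasmic reticulum is loaded with protein. These pathways, the splicing kinases, zinc finger genes, and markers of cell types and brain regions are described here by their members.

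Library totals were 14.2 M to 14.6 M counts at 24 h and 15.4 M to 27.3 M in the controls, the deepest being control 1. The summed level of 14 neuron markers was 8930 to 9880 CPM in the 9 brain libraries, against 639 to 1270 CPM in the 9 meninges libraries and 45.4 to 66.4 CPM in the 9 skull libraries. CPM is a count scaled to library size. In the deposited table the columns of brain 24 h 1 and meninges 0.5 h 3 stand in each other's place, but the column named for brain 24 h 1 had brain levels, with the synaptic gene Snap25 at 2350 CPM.

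One library of each group stood apart. Control 1 had 25.1 CPM of Cd74, the MHC class II chaperone, where controls 2 and 3 had 2.21 and 2.42 CPM, and 4.87 CPM of the epidermal keratin Krt14, which those controls list at 0. Library 24 h 1 had 96.7 CPM of the activity-induced gene Fos, where 24 h 2 and 24 h 3 had 20.1 and 20.7 CPM, and 139 CPM of Npas4, where they had 19.1 and 15.9 CPM. Counts of calls are therefore also given without control 1, and for some lists without 24 h 1; the part of either library in the results was not tested beyond this.

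At 24 h 477 of 18172 tested genes (2.62%) passed an adjusted p of 0.05 in the edgeR quasi-likelihood test, 219 higher (1.21%) and 258 lower (1.42%). Groups did not overlap for all 477, and for 22.2% of the tested genes. Without control 1 the count was 153 of 18791 (0.814%), of which 145 were also called with it, and without 24 h 1 it was 229. Most changes were moderate. The median log2 fold change was 0.56 over the called higher genes and −0.56 over the called lower ones, and 93 and 111 of them were under 0.5 in size.

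The gene with the smallest p was Txnip, which encodes a binder and inhibitor of thioredoxin that also restrains glucose uptake (chromosome 3, 96557957 to 96561883, plus strand, GRCm38). Txnip had 10.9, 11.8 and 13.7 CPM in the 24 h libraries 1 to 3, against 46.4, 34.3 and 40.4 CPM in control libraries 1 to 3, values here and below being scaled by TMM library size factors. The highest 24 h library lay far under the lowest control. Its log2 fold change was −1.74 ± 0.15 (SE, adjusted p = 1.54e-05, n = 3 and 3). Reads from Txnip and from Gm15441 on the opposite strand, which share 606 exon bases, cannot be told apart if strand was not used in counting.

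Polr3e, a subunit of RNA polymerase III, the enzyme that makes transfer RNA and 5S ribosomal RNA, had 38.1, 40.6 and 42.9 CPM at 24 h, against 75.9, 74.8 and 79.9 CPM in controls. Its groups were tight and well apart, with a log2 fold change of −0.92 ± 0.08 (adjusted p = 1.83e-05; chromosome 7, 120917744 to 120947432, plus strand). Inf2, a formin that shapes actin filaments, had 134, 142 and 128 CPM at 24 h, against 233, 237 and 232 CPM in controls. The controls of Inf2 spanned only a few CPM, and the log2 fold change was −0.80 ± 0.09 (adjusted p = 0.000118; chromosome 12, 112588784 to 112615557, plus strand). Utp14b, a gene related to a factor of ribosomal RNA processing, fell by 1.01 on the log2 scale (SE 0.11, adjusted p = 0.000106) and shares 244 exon bases with Acsl3 on the same strand. Hmgb2, a chromatin protein of dividing and precursor cells, had 2.06, 1.56 and 1.8 CPM at 24 h, against 13.7, 8.21 and 11.8 CPM in controls (−2.64 ± 0.26, adjusted p = 2.46e-05). Txnip, Polr3e, Inf2, Utp14b and Hmgb2 kept their calls in all 9 fits with 1 brain library left out.

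**Figure D1:**
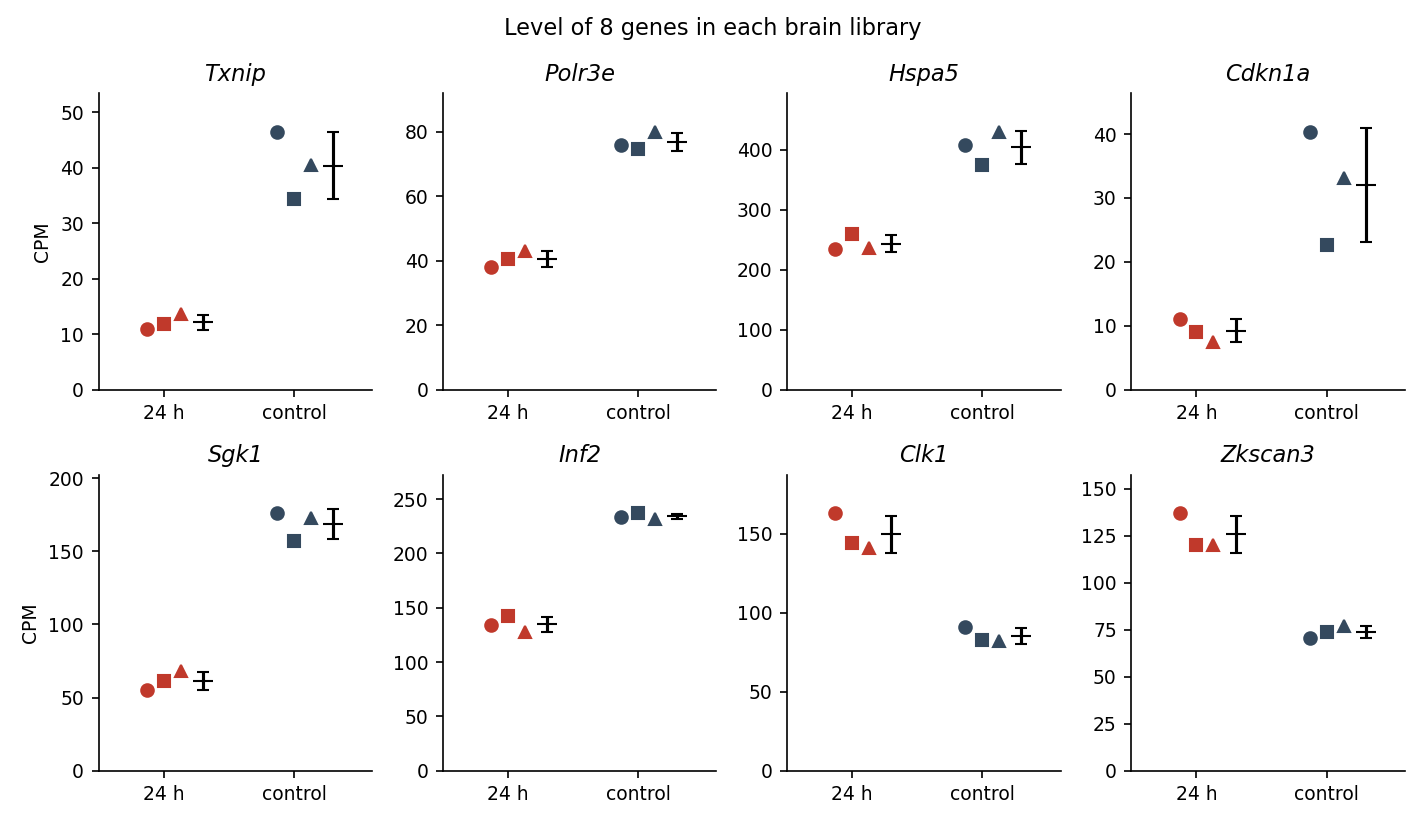
CPM (y axis, from 0) of 8 genes in the 3 brain libraries at 24 h and the 3 control libraries, with circle, square and triangle for libraries 1, 2 and 3 and the black bar for mean ± SD. The groups did not overlap for any of the 8: Txnip, Polr3e, Hspa5, Cdkn1a, Sgk1 and Inf2 were lower at 24 h, and Clk1 and Zkscan3 were higher.

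Among genes that glucocorticoids induce, 7 of 25 tested members fell and 0 rose (28.0% lower, against 1.42% of all tested genes), with a median log2 fold change of −0.56, against 0.00 over all tested genes. At an unadjusted p under 0.05, 13 were lower and 3 higher, and DESeq2 called 11 lower and 0 higher. Without control 1 the count was 8 lower. Cdkn1a, an inhibitor of cyclin-dependent kinases, had 11.1, 9.05 and 7.49 CPM at 24 h, against 40.3, 22.6 and 33.2 CPM in controls (−1.80 ± 0.19, adjusted p = 0.000226). Sgk1, a kinase that regulates ion channels and transporters, had 55.3, 61 and 67.9 CPM, against 176, 157 and 173 CPM in controls. Every 24 h library of Sgk1 lay far under every control (−1.46 ± 0.15, adjusted p = 0.00156).

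Tsc22d3, also called GILZ, a leucine zipper protein that dampens inflammation, had 52, 59.2 and 62.3 CPM at 24 h, against 83.8, 90.5 and 81.6 CPM in controls (−0.56 ± 0.08, adjusted p = 0.00211). Per1, which both the clock and glucocorticoids drive, had 91.3, 79.4 and 90.1 CPM, against 122, 118 and 142 CPM (−0.55 ± 0.08, adjusted p = 0.00227). The arrestin-like Arrdc2 (−1.27 ± 0.20), the inhibitor of EGF receptor signalling Errfi1 (−0.78 ± 0.13) and the transcription factor Klf9 (−0.38 ± 0.07) completed the 7, at adjusted p between 0.00398 and 0.00815. Not every textbook target passed. Fkbp5, a chaperone that restrains the receptor, had 29.9, 43.5 and 39.2 CPM at 24 h, against 41, 32.3 and 37.5 CPM in controls, so that its groups overlapped (0.02 ± 0.15, adjusted p = 0.964). Nfkbia, the inhibitor of NF-kB, had 8.5, 10.5 and 16.8 CPM, against 73.2, 35.4 and 29.7 CPM, and did not pass (−1.96 ± 0.42, adjusted p = 0.0684). It did pass without control 1, its highest library (−1.44, adjusted p = 0.00645), and without control 3. In no other fit with 1 brain library left out did Nfkbia pass.

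Of the genes that FoxO factors and low insulin signalling raise, 6 of 23 were called lower (26.1%, against 1.42% of all tested genes). By edgeR 0 were called higher, and the median was −0.26. At an unadjusted p under 0.05, 10 were lower and 1 higher, and DESeq2 called 8 lower and 0 higher. Without control 1 edgeR called 5 lower, and the median was −0.15. Txnip, described above, is on this list. Arrdc3, an arrestin-like adaptor that removes receptors from the membrane, had 43.2, 54.8 and 44.6 CPM at 24 h, against 80.5, 83.8 and 83.3 CPM in controls (−0.80 ± 0.09, adjusted p = 0.000181). Irs2, an adaptor of the insulin receptor, had 62.7, 64 and 68.6 CPM, against 92.7, 98.7 and 112 CPM (−0.63 ± 0.09, adjusted p = 0.000753). Both genes had their highest 24 h library well below their lowest control.

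Foxo1 itself fell by 0.62 on the log2 scale (SE 0.12, adjusted p = 0.00855), at 25.8, 29 and 23.1 CPM in 24 h libraries against 37.2, 39.5 and 43.4 CPM in controls. Depp1, a FoxO target linked to autophagy, was near the lower limit of counting at 24 h, with 0.137, 0.068 and 0.693 CPM, against 3.22, 3.54 and 3.63 CPM in controls (−3.50 ± 0.51, adjusted p = 0.00156). Klf15, a regulator of amino acid and glucose metabolism, fell by 0.60 (SE 0.14, adjusted p = 0.027) but lost the call without control 1 (adjusted p = 0.0761), 24 h 1, control 2 or control 3. Other members had overlapping groups or did not pass. Pdk4, an inhibitor of pyruvate dehydrogenase, stood at 8.64, 7.01 and 6.31 CPM at 24 h and 11, 11.6 and 10.5 CPM in controls (adjusted p = 0.0755).

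Chaperones and stress genes of the endoplasmic reticulum were mostly lower. Of 32 tested members 6 fell (18.8%, against 1.42%) and 0 rose (0 at an unadjusted p under 0.05; DESeq2 0), 30 had a negative log2 fold change, and 17 had every 24 h library under every control, against 10.8% of all tested genes. The median was −0.26, and 5 members were called without control 1. Hspa5, the main chaperone of the compartment and the sensor that holds the unfolded protein response in check, had 235, 259 and 236 CPM at 24 h, against 407, 374 and 429 CPM in controls (−0.73 ± 0.09, adjusted p = 0.00028). Its groups were far apart relative to their spread.

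The disulfide isomerase Pdia6 had 93.2, 96.3 and 92.7 CPM at 24 h, against 128, 140 and 127 CPM in controls (−0.48 ± 0.07, adjusted p = 0.00262). Xbp1, the transcription factor of the response, had 53.2, 52.4 and 56.7 CPM, against 72.4, 80.6 and 80.3 CPM (−0.52 ± 0.09, adjusted p = 0.00401). Herpud1, a membrane protein of the degradation machinery, had 38.6, 44.2 and 44.3 CPM, against 61.6, 66.4 and 57.6 CPM (−0.55 ± 0.09, adjusted p = 0.00402). These 4 genes kept the call whichever brain library was left out. Sdf2l1 (−0.84 ± 0.17, adjusted p = 0.0171) lost it without control 2 or 24 h 1, and the isomerase Pdia4 (−0.41 ± 0.11, adjusted p = 0.0498) without 8 of the 9 libraries. Ddit3, which drives the late, death-linked arm, had overlapping groups (−0.28 ± 0.14, adjusted p = 0.291), as did the chaperone Dnajb9 (−0.05 ± 0.10, adjusted p = 0.86).

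The promoters of these genes are shown because the letters that the response reads can be seen in them. The endoplasmic reticulum stress element, CCAAT and CCACG with 9 bases of any kind between them, on either strand, was found in the 250 bases before the start of 9 of the 27 list members with a RefSeq promoter (33.3%), against 35 of 27025 genes (0.13%). The 9 were Hspa5, Hsp90b1, Calr, Canx, Pdia6, Dnajc3, Creld2, Syvn1 and Derl3, of which Hspa5 and Pdia6 were called. A related element, ATTGG and CCACG with 1 base between them, was found in Herpud1 (3.7% of the members, against 0.037% of genes). Neither element was found for the called members Xbp1, Sdf2l1 and Pdia4. A match of letters is a description and not a measured binding site. These shares describe the list and not the change at 24 h. Sequences are from RefSeq on GRCm38.p6, 5′ to 3′ and ending at the base before the start, with the element in capitals.
Hspa5, chr2:34771840-34772089, plus strand: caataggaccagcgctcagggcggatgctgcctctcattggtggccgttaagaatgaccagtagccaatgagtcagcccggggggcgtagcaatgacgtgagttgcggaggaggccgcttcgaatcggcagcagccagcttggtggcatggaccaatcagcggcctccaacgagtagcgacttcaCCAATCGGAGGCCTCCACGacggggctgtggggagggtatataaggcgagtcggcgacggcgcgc
Pdia6, chr12:17266339-17266588, plus strand: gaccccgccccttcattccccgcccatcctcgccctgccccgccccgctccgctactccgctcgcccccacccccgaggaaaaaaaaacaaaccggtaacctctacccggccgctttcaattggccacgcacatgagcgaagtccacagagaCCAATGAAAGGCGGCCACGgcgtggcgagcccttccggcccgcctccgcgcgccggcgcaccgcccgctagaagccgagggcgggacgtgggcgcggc
Herpud1, chr8:94386179-94386428, plus strand: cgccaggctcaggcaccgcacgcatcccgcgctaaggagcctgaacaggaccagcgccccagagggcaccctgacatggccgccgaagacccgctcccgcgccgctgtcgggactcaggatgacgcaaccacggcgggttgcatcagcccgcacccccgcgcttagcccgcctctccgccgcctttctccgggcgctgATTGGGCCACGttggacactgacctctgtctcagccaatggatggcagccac

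Other elements were searched in the same window. The FoxO core, GTAAACA, was found in 1 of 18 genes of the FoxO list, Txnip (5.56%, against 3.54%). The E-box, CACGTG, was found in 5 of 19 clock genes (26.3%, against 6.86%). A palindromic glucocorticoid response element, AGAACA and TGTTCT with 3 bases between them, was found in 1 of 22 glucocorticoid-induced genes with a RefSeq promoter, Sgk1 (4.55%, against 3 genes or 0.0111% of all). The cyclic AMP response element, TGACGTCA, was found in Maff and Btg2 of 26 immediate early genes (7.69%, against 1.77%). Sgk1 and Maff, both lower at 24 h, are shown with these elements in capitals.
Sgk1, chr10:21993640-21993889, plus strand: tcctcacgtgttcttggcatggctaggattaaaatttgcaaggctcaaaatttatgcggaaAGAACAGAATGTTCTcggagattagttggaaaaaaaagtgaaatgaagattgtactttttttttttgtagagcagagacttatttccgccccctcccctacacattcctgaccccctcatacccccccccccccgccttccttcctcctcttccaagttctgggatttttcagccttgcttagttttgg
Maff, chr15:79347270-79347519, plus strand: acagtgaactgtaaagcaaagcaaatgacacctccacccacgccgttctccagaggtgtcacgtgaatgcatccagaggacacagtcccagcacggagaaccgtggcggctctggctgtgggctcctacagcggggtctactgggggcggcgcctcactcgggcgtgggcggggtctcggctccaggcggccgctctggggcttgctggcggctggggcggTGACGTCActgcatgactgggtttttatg

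Immediate early genes, which neurons and vessels switch on within minutes of a stimulus, were lower where they passed. Of 33 tested 4 fell (12.1%, against 1.42% of all tested genes), 0 rose, and the median was −0.32. At an unadjusted p under 0.05, 3 were higher and 13 lower, and DESeq2 called 1 higher and 7 lower. Without control 1 the calls were 3 lower and 0 higher, and without 24 h 1 they were 4 lower and 1 higher, with a median of −0.51. Maff, a small bZIP factor, had 0.206, 0.952 and 0.763 CPM at 24 h, against 8.56, 4.66 and 4.59 CPM in controls (−3.21 ± 0.41, adjusted p = 0.000435). Apold1, an early gene of endothelium, had 4.05, 6.05 and 6.86 CPM, against 30.1, 24.9 and 34.1 CPM (−2.39 ± 0.28, adjusted p = 0.0027). Csrnp1 (−1.33 ± 0.22, adjusted p = 0.00829) and the kinase Sik1 (−1.13 ± 0.21, adjusted p = 0.0249) were the other two. Sik1 lost the call without control 1, control 2, 24 h 1 or 24 h 2.

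Arc, which neurons transport to active synapses, had 228, 92 and 121 CPM at 24 h, against 41.8, 47.1 and 39.6 CPM in controls. Each 24 h library lay above all controls, with 24 h 1 far above the other two, and Arc did not pass (1.78 ± 0.35, adjusted p = 0.0617). It did pass without 24 h 1 (1.31, adjusted p = 0.00437) and without 24 h 2 (2.03, adjusted p = 0.0387), and in no other fit with 1 brain library left out. Fos had overlapping groups, with 96.7, 20.1 and 20.7 CPM at 24 h, against 53.6, 24.7 and 27.1 CPM in controls (0.37 ± 0.69, adjusted p = 0.837). Krüppel-like factors, several of which are also early or hormone-induced genes, had 4 of 14 members lower (28.6%, against 1.42% of all tested genes). These were Klf9, Klf13, Klf15 and Klf2. Without control 1, and likewise without 24 h 1, 1 was called.

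Several splicing regulators rose. In a list of cold-inducible RNA-binding proteins, CLK kinases and SR proteins, 6 of 35 were higher (17.1%, against 1.21% of all tested genes), 0 lower (1 at an unadjusted p under 0.05; DESeq2 called 1 lower) and 3 without control 1. Clk1, a kinase that phosphorylates SR splicing factors, had 163, 144 and 141 CPM at 24 h, against 91.2, 82.8 and 82.2 CPM in controls (0.81 ± 0.08, adjusted p = 2.46e-05; chromosome 1, 58410189 to 58424066, minus strand). Clk4, its close relative, had 104, 99 and 91.5 CPM, against 57.2, 65.1 and 52.1 CPM (0.76 ± 0.10, adjusted p = 0.000381). Both kinases were called in every fit with a library left out.

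Rbm3, an RNA-binding protein that mild cooling induces, had 58.6, 54.5 and 51.5 CPM at 24 h, against 36.5, 28.1 and 31.5 CPM in controls (0.77 ± 0.11, adjusted p = 0.0013), and overlaps the antisense gene Rbm3os over 94 exon bases. Cirbp, the other cold-inducible RNA-binding protein of the list, had 58.1, 70.3 and 71 CPM, against 59.9, 60.6 and 57.3 CPM, with overlapping groups (0.17 ± 0.10, adjusted p = 0.373). The SR protein Srsf5 (0.29 ± 0.06, adjusted p = 0.0174) and the SR-related Pnisr (0.28 ± 0.06, adjusted p = 0.0276) and Tra2a (0.33 ± 0.08, adjusted p = 0.0399) rose by less, and lost the call without control 1, among others.

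Zinc finger genes made up 37 of the 219 higher calls. Most of these genes encode DNA-binding repressors, many of them of the KRAB family that silences transposable elements. Of 383 tested genes with Zfp, Zkscan or Zscan symbols 37 rose (9.66%, against 1.21%) and 0 fell (9 at an unadjusted p under 0.05, with 139 higher; DESeq2 called 55 higher and 0 lower). In all 304 had a positive and 79 a negative log2 fold change, and the median was 0.24. The 24 h libraries lay above all controls for 142 and under them for 14, against 11.5% and 10.8% of all tested genes. Leaving out control 1 gave 16 (of 387 tested, median 0.22, against 0.399% of all genes tested then), and leaving out 24 h 1 also gave 16.

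Zkscan3, a repressor of autophagy genes in cultured cells, had 137, 120 and 120 CPM at 24 h, against 70.7, 73.8 and 77.2 CPM in controls (0.77 ± 0.08, adjusted p = 5.98e-05; chromosome 13, 21387003 to 21402755, minus strand). Zfp84 had 24.5, 21.2 and 23.2 CPM, against 11.2, 13.1 and 10.4 CPM (1.0 ± 0.14, adjusted p = 0.000883). Zfp111 had 16.7, 14.4 and 13.4 CPM, against 6.99, 7.02 and 7.96 CPM (1.02 ± 0.16, adjusted p = 0.00305). In each of the 3 the groups were well separated, as they were for Zkscan16 (0.64 ± 0.09, adjusted p = 0.0013), Zfp46 (0.52 ± 0.08, adjusted p = 0.00325) and the scarce Zfp418.

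Zfp418 had 6.1, 3.94 and 3.81 CPM at 24 h, against 1.17, 1.12 and 0.573 CPM in controls (2.24 ± 0.36, adjusted p = 0.00325). These 6 genes kept the call with any brain library left out. Of the 37, chromosome 7 held 9 (24.3%), beside 92 of the 381 tested members with a position (24.1%), and chromosome 13 held 8 (21.6%), beside 40 (10.5%). Many members arose by duplication, and the way reads that fit several copies were counted is unknown here, so values of near-identical copies are uncertain.

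Base composition and length moved with these calls. The called higher genes had a median GC content of 44.1% and a median exon length of 6194 bases, against 53.1% and 3718 bases for the called lower genes and 49.3% and 3991 bases for all tested genes. The tested zinc finger genes stood at 44.7% and 4614 bases. With GC content and exon length entered as offsets in each library, 26 zinc finger genes were called higher and 0 lower, with a median of 0.20, and 3 splicing genes rose and 1 fell.

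**Figure D2:**
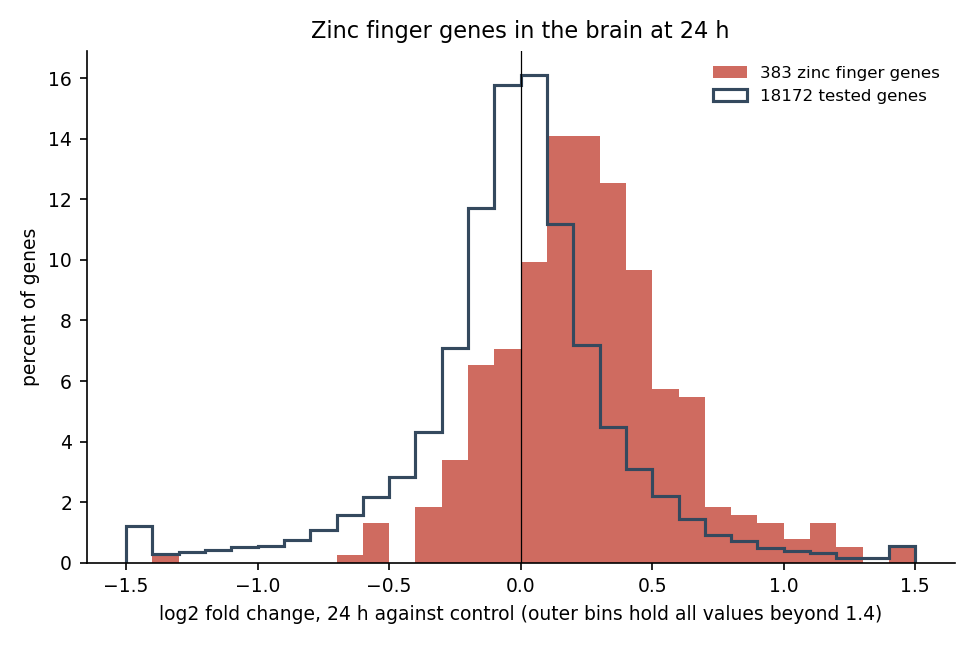
Percent of genes (y axis) by log2 fold change of 24 h against control (x axis, bins of 0.1) for the 383 tested zinc finger genes (filled) and all 18172 tested genes (line). The zinc finger genes are shifted to the right, with a median of 0.24 against 0.00.

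Markers of the striatum were lower in every 24 h library. The striatum is the forebrain region of dopamine-receiving projection neurons, which express Drd1 or Drd2. The summed level of 12 markers was 645, 952 and 408 CPM in the 24 h libraries, against 1520, 1510 and 1580 CPM in controls, on plain library totals. The mean was 668 ± 273 CPM at 24 h and 1540 ± 37.9 CPM in controls (SD, n = 3 each), a ratio of 0.435, with an exact two-sided permutation p of 0.1, the smallest that 3 against 3 can give. All 12 had their 24 h libraries under all controls, where 10.8% of tested genes did, and the median log2 fold change was −1.30. Only 2 of the 12 passed the adjusted test, with all 12 at an unadjusted p under 0.05 and 9 called by DESeq2. Leaving out control 1 or 24 h 1 left 1 call in either fit, with medians of −1.28 and −1.27.

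The 24 h libraries differed among themselves in these genes. Library 24 h 3 was the lowest and 24 h 2 the highest of its group for all 12. Drd2, the dopamine receptor of the indirect pathway, had 9.39, 22 and 5.27 CPM at 24 h, against 33.5, 33.3 and 36.1 CPM in controls (−1.49 ± 0.51, adjusted p = 0.203). Ppp1r1b, which encodes the dopamine-regulated phosphatase inhibitor DARPP-32, had 74.4, 110 and 51.6 CPM, against 209, 196 and 201 CPM (−1.36 ± 0.32, adjusted p = 0.0917). Adora2a, the adenosine receptor that indirect-pathway neurons share with Drd2, had 15.6, 37.2 and 9.43 CPM, against 61.1, 62.3 and 73.6 CPM (−1.66 ± 0.50, adjusted p = 0.155). For each of the 3 the controls lay close together and the 24 h libraries were spread widely.

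Drd1, the dopamine receptor of the direct pathway, had 26.1, 33.1 and 13.1 CPM at 24 h, against 41.8, 49.9 and 41.6 CPM in controls (−0.88 ± 0.36, adjusted p = 0.271). The 2 called members varied less at 24 h. Gpr6, an orphan receptor of indirect-pathway neurons, had 3.15, 3.2 and 2.77 CPM, against 7.76, 9.52 and 8.09 CPM (−1.47 ± 0.24, adjusted p = 0.00401), and kept the call with any library left out. Rasd2, a small GTPase named Rhes, had 66.2, 92.1 and 59 CPM, against 139, 147 and 146 CPM (−0.99 ± 0.19, adjusted p = 0.0375), and lost it without 6 of the 9, control 1 among them (adjusted p = 0.115).

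Fewer striatal cells in a sample and less RNA per cell cannot be told apart in bulk tissue, and the share of striatum in each piece was not measured. In time order the marker sum was 1510 to 1580 CPM in controls, 1200 to 2090 CPM at 0.5 h and 408 to 952 CPM at 24 h, so that the 0.5 h libraries overlapped the controls. Mean sums over other regions differed by less. The ratio of 24 h to control was 1.06 for cortex, 1.0 for hippocampus, 0.956 for thalamus and habenula, 1.04 for cerebellum and 0.78 for hypothalamus. Their exact permutation p was 0.4, 1, 1, 0.6 and 0.6 (n = 3 each). Single libraries spread more widely. Sums for thalamus and habenula ran from 129 to 348 CPM at 24 h and from 211 to 256 CPM in controls. Those for hypothalamus ran from 12.2 to 36.8 CPM and from 15.4 to 45.9 CPM.

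**Figure D3:**
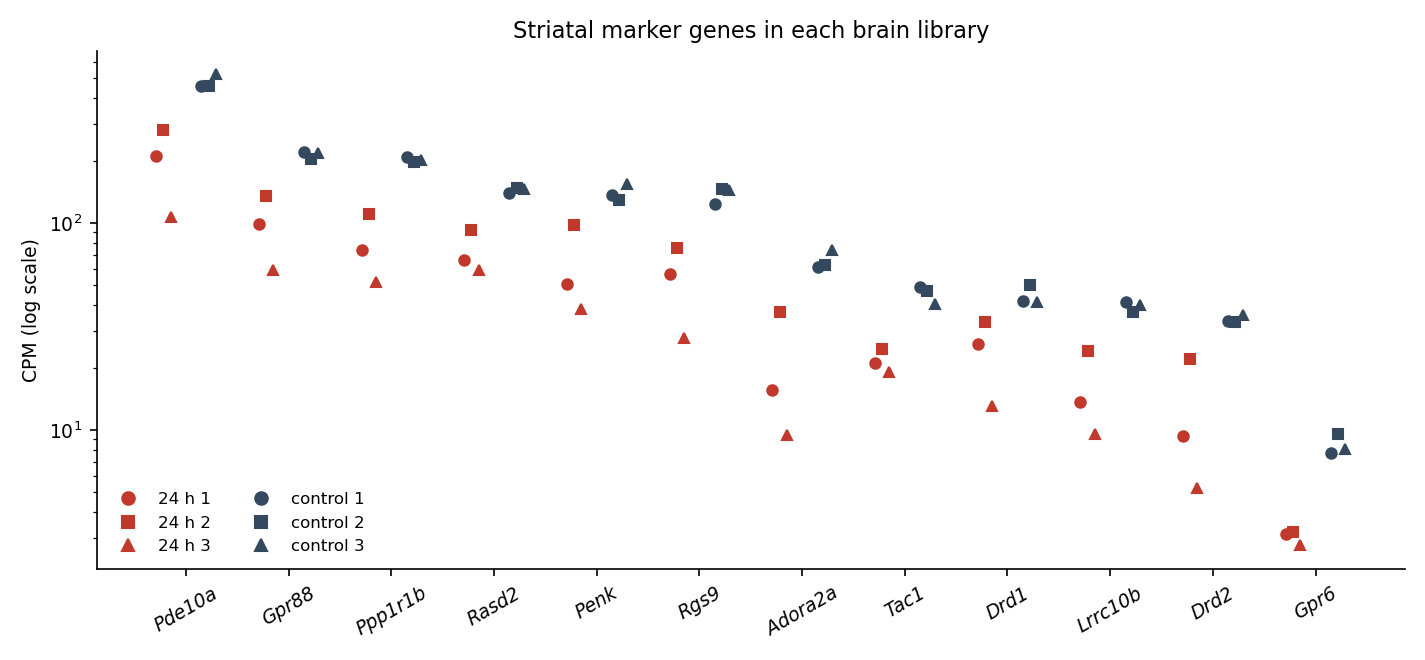
CPM (y axis, log scale) of 12 striatal marker genes in each brain library, 24 h libraries in red to the left of control libraries in dark blue, with circle, square and triangle for libraries 1, 2 and 3. For each gene all 24 h points lie under all control points, and 24 h 3 (triangle) is the lowest.

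Summed markers of neurons and astrocytes were closer to their control level. The summed neuron markers had a mean of 9380 ± 438 CPM at 24 h and 9110 ± 225 CPM in controls, and the summed astrocyte markers 5090 ± 225 and 5030 ± 88.9 CPM (SD, n = 3 each). None of 14 neuron and 13 astrocyte markers passed in edgeR (2 and 2 at an unadjusted p under 0.05), and DESeq2 called 1 neuron marker lower. All 16 oligodendrocyte markers had a negative log2 fold change (median −0.33, and −0.19 without 24 h 1), with 0 called by edgeR or DESeq2 and 1 at an unadjusted p under 0.05. Their sums were 4570, 6810 and 5530 CPM at 24 h, against 5990, 7890 and 6800 CPM in controls, and overlapped. The summed T and NK cell markers stood at 6.19 to 10.3 CPM at 24 h and 15.4 to 18 CPM in controls. The ratio was 0.497. Of the 15 members, 8 to 10 had no count in a 24 h library and 2 to 9 in a control, so these numbers overlapped. Only 4 of the 15 were tested, with 0 called by edgeR and 1 lower by DESeq2. The exact permutation p of the T and NK cell sums was 0.1, as for B cells (ratio 0.724), homeostatic microglia (0.877), endothelium (0.965) and pericytes and smooth muscle (1.09).

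Homeostatic microglia markers had 3 of 18 members lower (16.7%, against 1.42% of all tested genes), the complement genes C1qa, C1qb and C1qc, and 0 higher. At an unadjusted p under 0.05, 8 were lower and 0 higher, and DESeq2 called 4 lower and 0 higher. For 8 of the 18 every 24 h library lay under every control, against 10.8% of all tested genes. The summed markers stood at 375 to 384 CPM at 24 h and 413 to 464 CPM in controls (exact permutation p = 0.1, n = 3 each). C1qa had 19.3, 25 and 21.3 CPM at 24 h, against 35.2, 29.1 and 37.6 CPM in controls (−0.64 ± 0.12, adjusted p = 0.0107). The microglial receptors P2ry12 and Cx3cr1 stood at 0.02 ± 0.14 and 0.09 ± 0.10 with overlapping groups (adjusted p = 0.955 and 0.697). None of the 3 complement genes was called without control 1 (adjusted p of 0.0519 for C1qa, 0.0526 for C1qb and 0.0718 for C1qc), though C1qa kept its direction at −0.60. C1qb also lost the call without control 3. C1qc kept it in 0 of the 9 fits with 1 brain library left out. With GC content and exon length as offsets, none of the 18 markers was called either (adjusted p = 0.0959 for C1qa).

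In endothelium Slco1a4, a transporter of the blood-brain barrier, had 78.4, 76.9 and 70.1 CPM at 24 h, against 48.9, 51 and 52.9 CPM in controls (0.56 ± 0.08, adjusted p = 0.00211) and kept the call with any library left out. Vwf, which encodes von Willebrand factor, was higher (0.53 ± 0.13, adjusted p = 0.0375) and the tight junction gene Cldn5 lower (−0.64 ± 0.14, adjusted p = 0.0252). Both lost the call without control 1. With 1 brain library left out, Vwf kept it in 3 of 9 fits and Cldn5 in 6. Of 15 tested genes of newborn neurons and their progenitors 2 were called higher (13.3%) and 1 lower (6.67%), against 1.21% and 1.42% of all tested genes. The median was −0.24, and 10 had negative log2 fold changes. At an unadjusted p under 0.05, 3 were higher and 5 lower, and without control 1 the calls were 0 higher and 1 lower. Dcx, a microtubule protein of migrating neurons, had 93.7, 71.5 and 65.6 CPM at 24 h, against 47.5, 51.7 and 53.2 CPM in controls (0.60 ± 0.12, adjusted p = 0.0182). Neurod1, a factor of granule neuron maturation, rose (0.92 ± 0.20, adjusted p = 0.0244), and the progenitor filament Nes fell (−0.71 ± 0.16, adjusted p = 0.0288). Dcx and Neurod1 lost the call without control 1 (adjusted p = 0.0759 and 0.0746), and Nes lost it without control 2, control 3 or any 24 h library (adjusted p up to 0.104).

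Genes of the respiratory chain encoded in the nucleus had 8 of 77 members lower (10.4%, against 1.42% of all tested genes), with a median of −0.25. At an unadjusted p under 0.05, 42 were lower and 1 higher, and DESeq2 called 16 lower. Of the 11 encoded in the mitochondrion, 0 were called (1 higher at an unadjusted p under 0.05; DESeq2 0; median 0.02), but 2 were called lower without 24 h 1 (median −0.13). Ndufa12, of complex I, had 25.6, 21.8 and 19.1 CPM at 24 h, against 40.9, 42.2 and 30.3 CPM in controls (−0.77 ± 0.14, adjusted p = 0.00829). Leaving out control 1 left 1 called nuclear member, as did leaving out 24 h 1. Cytosolic ribosomal protein genes had 4 of 78 lower (5.13%, against 1.42% of all tested genes) and a median of −0.44. At an unadjusted p under 0.05, 47 were lower and 0 higher, and DESeq2 called 22 lower. By edgeR 0 were called without control 1 (median −0.28) or without 24 h 1 (median −0.31).

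Interferon-stimulated genes, which mark antiviral and inflammatory states, all had negative log2 fold changes (39 of 39, median −1.26), with 0 called by edgeR, 16 lower at an unadjusted p under 0.05 and 4 lower by DESeq2. The 24 h libraries lay under all controls for 3 of the 39 and above them for 0, against 10.8% and 11.5% of all tested genes. The MHC class I genes H2-K1 and H2-D1 were among the genes raised in control 1. H2-K1 had 209 CPM there, where controls 2 and 3 had 22.5 and 46.6 CPM. The part of that library in the interferon list's median was not tested beyond its value without control 1, −1.05. Of 13 tested MHC class I genes 1 was called lower (7.69%, against 1.42% of all tested genes) and 0 higher. At an unadjusted p under 0.05, 12 were lower and 0 higher, and DESeq2 called 4 lower. For 6 of the 13 the 24 h libraries lay under all controls. The median was −1.66, and −0.66 without control 1, where 0 were called.

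**Figure D4:**
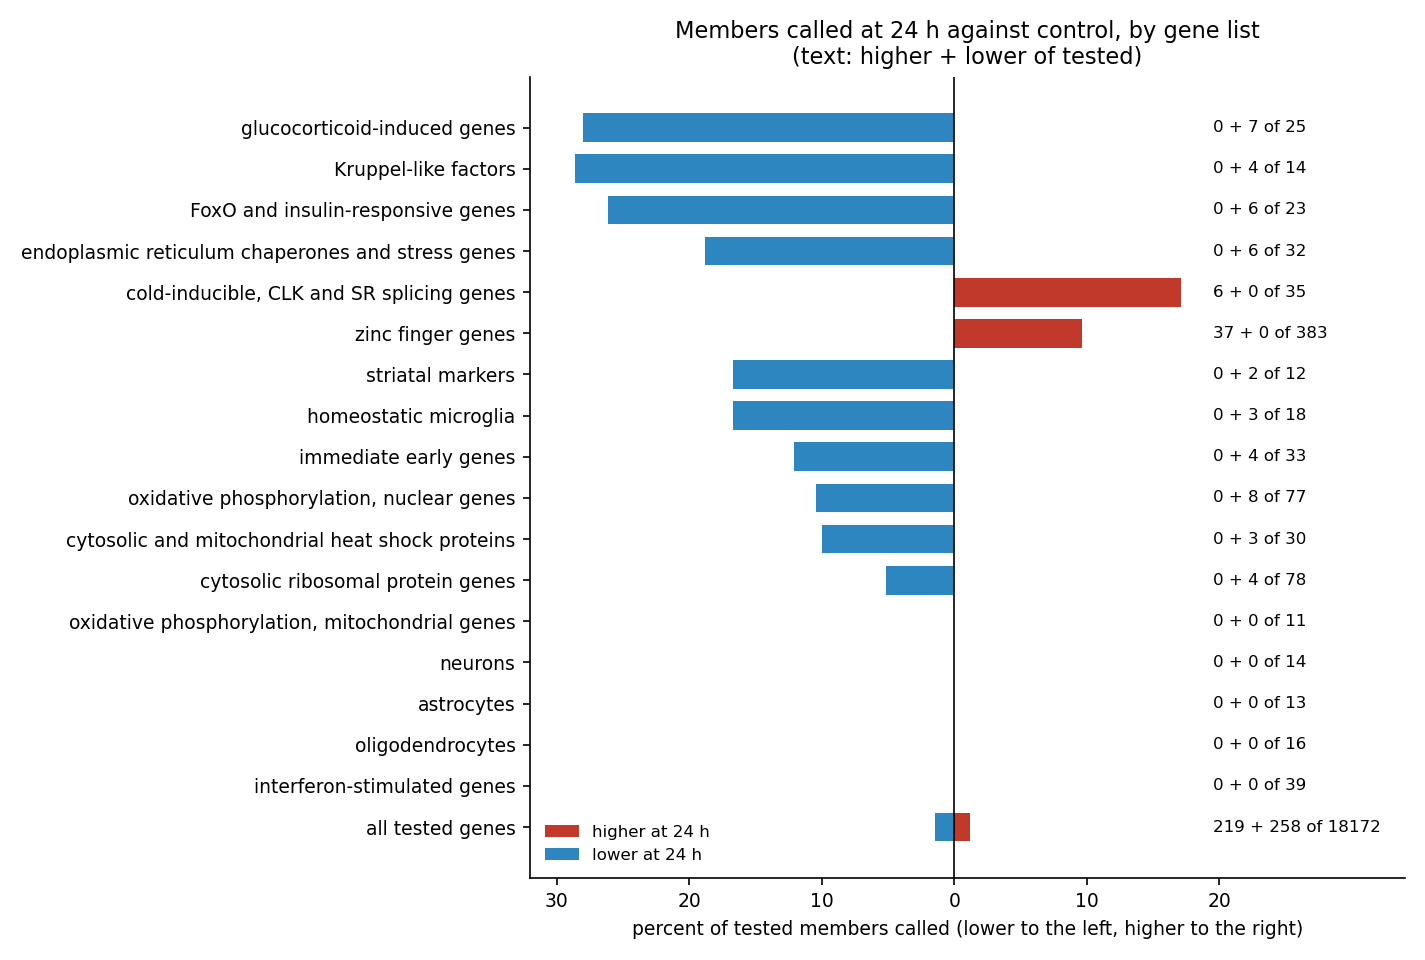
Percent of tested members (x axis) called higher (right, red) or lower (left, blue) at 24 h against control, for 17 gene lists and all tested genes (y axis), with the numbers called higher and lower and the number tested. Shares run to 28.6% lower and 17.1% higher, against 1.42% and 1.21% of all tested genes.

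Set beside the earlier time point, 40 of 18172 genes (0.22%) differed between brain 24 h and brain 0.5 h. For most of the 477 genes called against control, no difference from 0.5 h therefore passed. The change from 0.5 h is given here for Inf2, Polr3e, Hspa5 and Per1 only. Inf2 had 134, 142 and 128 CPM at 24 h, against 269, 223 and 199 CPM at 0.5 h (−0.77 ± 0.09, adjusted p = 0.000561). Its 0.5 h libraries lay around the controls, which stood near 233 CPM. Polr3e, in time order, averaged 76.9 ± 2.71 CPM in controls, 55.6 ± 3.82 CPM at 0.5 h and 40.5 ± 2.4 CPM at 24 h (SD, n = 3 each), and its 24 h level differed from that at 0.5 h (−0.46 ± 0.08, adjusted p = 0.024). Hspa5 also differed between 24 h and 0.5 h (−0.53, adjusted p = 0.0124). Per1 did not pass there (0.12, adjusted p = 0.617), its 0.5 h libraries standing at 80.6, 77.1 and 83 CPM.

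The 24 h change in brain was then set against that in meninges and skull, each against its own controls, in a fit of all 27 libraries. The change differed for 283 of 21500 genes between brain and meninges (1.32%) and for 1443 between brain and skull (6.71%). For several leading genes no difference between tissues passed the test. Sgk1 stood at −1.45 ± 0.18 in brain, −1.31 ± 0.18 in meninges and −1.47 ± 0.18 in skull (adjusted p of the difference 0.867 and 1), and Rbm3 at 0.78 ± 0.15, 0.72 ± 0.15 and 0.68 ± 0.15 (0.957 and 0.877). Txnip stood at −1.73 ± 0.13, −1.08 ± 0.12 and −1.51 ± 0.12 (0.0626 and 0.507).

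The clock genes Dbp, Arntl and Per1, and the Krüppel-like factor Klf9, moved less in brain than in either border tissue. Other clock genes are not described across tissues here. Dbp, an output gene of the clock, stood at 0.30 ± 0.30 in brain, 2.45 ± 0.31 in meninges and 4.41 ± 0.35 in skull, and the brain differed from both (adjusted p = 0.0108 and 1.06e-05). Arntl, which encodes the activator BMAL1, stood at −0.29 ± 0.13, −1.57 ± 0.13 and −2.54 ± 0.14 (adjusted p = 0.000586 and 1.64e-07). Per1 stood at −0.54 ± 0.15, −1.66 ± 0.15 and −1.86 ± 0.15 (0.00723 and 0.000518), and Klf9 at −0.37 ± 0.16, −1.44 ± 0.16 and −2.10 ± 0.16 (0.0151 and 5.38e-05). In the brain itself 2 of 24 clock genes were called higher, Nr1d2 and Rorb (8.33%, against 1.21% of all tested genes). Of the same 24, 1 was lower, Per1 (4.17%, against 1.42%). Without control 1 these counts were 1 and 1. Clock time and UVB cannot be told apart if the groups were collected at different hours, which the labels do not give.

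**Figure D5:**
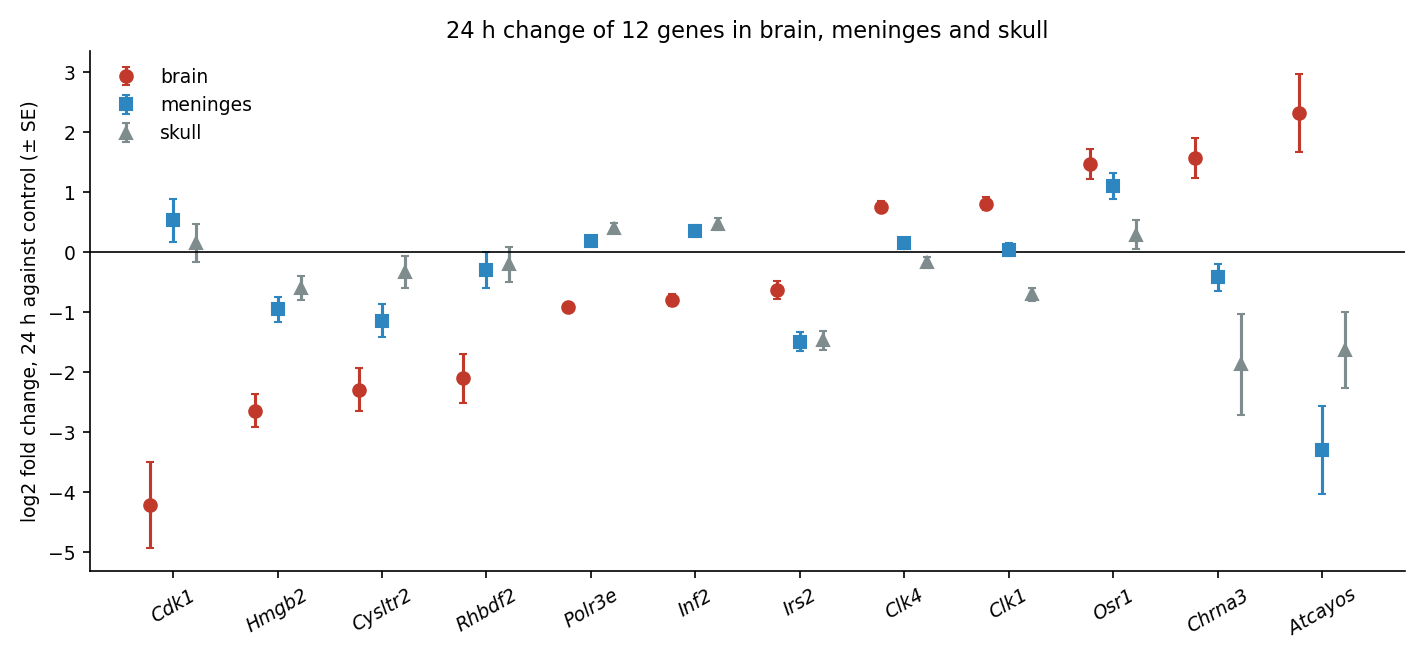
Log2 fold change of 24 h against control (y axis, ± SE) in brain, meninges and skull for the 12 leading genes whose brain change differed from that of meninges or skull (x axis, ordered by the change in brain). Polr3e and Inf2 are below 0 in brain and above 0 in the other tissues, and Clk1 and Clk4 are above 0 in brain and near or below 0 in skull.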

How the data were processed

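Per the labels' protocols, poly(A) RNA was isolated from TRIzol extracts for Illumina libraries. The deposited values are raw counts per gene symbol. The submitters' processing notes name HISAT2 2.1.0 and mm10. How reads were assigned to genes, and whether strand was used, is not given in the sources used here. Symbols were matched to GENCODE M21 (33392 of 37095, 90.0%).

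Counts of the 9 brain libraries were fitted with the edgeR 4.0.16 quasi-likelihood test (robust, R 4.3.3) after TMM scaling and a filterByExpr filter set at a count of 10 and a total of 15. Benjamini-Hochberg adjusted p-values under 0.05 are calls. SEs were worked back from the F statistic. Differences between tissues came from a fit of 27 libraries. DESeq2 1.42.0 and limma-voom (limma 3.58.1) were alternatives.

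Members and gene lists were chosen with earlier results of these data known. Named genes are, among calls with a mean of at least 1 CPM, an established symbol and groups that do not overlap, the 10 in each direction with the smallest p and the 8 with the largest change, not all of which are printed, and up to 6 called members of each list. Other members printed (Fkbp5, Nfkbia, Pdk4, Ddit3, Dnajb9, Arc, Fos, Cirbp, P2ry12, Cx3cr1, H2-K1, the striatal markers not called and the clock genes compared across tissues) were named after their values were seen.

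Same-numbered 24 h and control libraries deviated from their group means with correlations of −0.18, 0.13 and −0.21, so the numbers were not taken as pairs. Replicates differed by more than counting noise in every pair of brain libraries (chi-square per degree of freedom 5.14 to 12.5).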

Additional observations from a re-analysis of the deposited data

Results flagged for a closer look

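Of 34 genes named by p or by size in the brain, the 24 h change differed from that in meninges for 8 and from that in skull for 12, by the test of the difference itself (edgeR, 27 libraries, adjusted over all tested genes). Over all 21500 tested genes the shares were 1.32% and 6.71%. The 34 were picked by their change in the same brain libraries that enter the difference. A larger share among them is therefore partly fixed by that choice. Differences are log2 fold change in brain minus that in the other tissue.

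The RNA polymerase III subunit Polr3e fell in brain, with a difference of −1.10 from meninges (adjusted p = 3.05e-06) and −1.33 from skull (7.57e-08). Inf2 differed by −1.14 (0.00025) and −1.26 (5.36e-06). Hmgb2 differed by −1.69 (0.0133) and −2.05 (0.000815), and the mitotic kinase Cdk1 by −4.74 (0.00422) and −4.36 (0.00226). Cdk1 had 0.274, 0.068 and 0.0693 CPM at 24 h, against 4.98, 0.985 and 1.53 CPM in controls, and its brain call ended without control 1 (adjusted p = 0.0762).

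The splicing kinase Clk1 rose in brain, with differences of 0.78 from meninges (0.00869) and 1.52 from skull (1.42e-06), and Clk4 with 0.61 (0.0108) and 0.93 (5.64e-05). The nicotinic receptor subunit Chrna3 differed by 1.99 (0.00965) and 3.44 (0.0213). Atcayos, which shares 432 exon bases with Atcay on the opposite strand, differed by 5.60 (0.00415) and 3.94 (0.0101).

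Only the difference from skull passed for Cysltr2 (−1.95, 0.00936), Rhbdf2 (−1.90, 0.026), Irs2 (0.84, 0.0224) and Osr1 (1.18, 0.0414). Irs2 fell in all 3 tissues, by less in brain. Of these genes Chrna3, Cysltr2, Rhbdf2 and Osr1 lost their brain call without control 1. With 1 brain library left out, Rhbdf2 and Osr1 kept it in 2 of 9 fits, Chrna3 in 5 and Cysltr2 in 6.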

How the results depend on the processing

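The count of 477 changed genes at 24 h was 1214 with no low-count filter, 877 with DESeq2 and 301 with the 2 groups alone. It ran from 153 (without control 1) to 437 with 1 library left out, and was 228 without control 2 and 229 without 24 h 1. Limma-voom called 320, RLE scaling 473, and TMM without ribosomal protein, haemoglobin and mitochondrial genes 473. Against 0.5 h the 40 genes became 438 with no filter, 228 with DESeq2 and 25 with the 2 groups alone, and 7 (without 0.5 h 1) to 91 (without 24 h 2) with 1 library left out. The 283 genes that differed from meninges became 812 with DESeq2 and 156 to 323 with 1 library left out, and the 1443 that differed from skull 986 to 1340. The cause of these shifts was not tested.

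With the replicate number as a block the 4 counts were 340, 38, 189 and 1106. Offsets for GC content and exon length, added after seeing the data and covering 95.8% of tested genes, gave 429 at 24 h and 57 against 0.5 h. Counts per gene list without control 1 or 24 h 1 were likewise added after seeing the data. Of 93 named genes that were called, 40 kept the call without any 1 of the 9 brain libraries, and 0 turned sign under any alternative run. Depth limits genes near 0.1 CPM, such as Depp1 and Cdk1, to a few counts per library.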

Other observations

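Dividing cells are rare in adult brain. Of 32 tested genes of DNA replication and mitosis 3 fell (9.38%, against 1.42% of all tested genes) and 0 rose, with a median of −0.50. At an unadjusted p under 0.05, 14 were lower and 0 higher, and DESeq2 called 4 lower. The proliferation marker Mki67 had 4.05, 3.4 and 2.91 CPM at 24 h, against 14.8, 7.55 and 8.09 CPM in controls (−1.57 ± 0.29, adjusted p = 0.00829). Without control 1, which had the highest level of Mki67, its adjusted p was 0.0521, and 1 gene of the list was called, with a median of −0.25. Cytosolic and mitochondrial heat shock proteins had 3 of 30 lower (10%, against 1.42% of all tested genes). These were Hsph1 (−0.31 ± 0.07, adjusted p = 0.0244), Cryab (−0.59 ± 0.13, 0.0375) and Hspa1a (−1.25 ± 0.32, 0.0433), the last with a near-identical copy whose reads may be split. Hspa1a kept the call in 1 of the 9 fits with 1 brain library left out. None of the 30 was called by edgeR without control 1.

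Among redox genes the cystine transporter Slc7a11 was higher (0.31 ± 0.08, adjusted p = 0.046) and the thioredoxin reductase Txnrd1 lower (−0.31 ± 0.08, adjusted p = 0.0348). Each kept the call in 2 of the 9 fits with 1 brain library left out, and both lost it without control 1. The glycolytic activator Pfkfb3 had 40.4, 38.4 and 40.3 CPM at 24 h, against 53.7, 55.9 and 53.1 CPM in controls (−0.45 ± 0.08, adjusted p = 0.00705), and kept the call with any brain library left out. The 22 glycolytic enzymes themselves had a median of −0.05, with 0 called by edgeR, 5 lower at an unadjusted p under 0.05 and 1 lower by DESeq2. Transcripts of Nwd2 (0.73 ± 0.10, adjusted p = 0.000716) and of the ciliary gene Cc2d2a (0.67 ± 0.11, adjusted p = 0.00307) were higher in each 24 h library than in any control.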
